A study of Mus musculus with 8 samples.

Results

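Translation initiation factors are the proteins that bring a ribosome, an initiator tRNA and an mRNA together at a start codon. Their genes were taken from the count table by symbol, as all names that begin with Eif and a digit between 1 and 6. This gave 55 of 25124 genes: 51 factors and 4 Eif2ak kinases, which regulate initiation and are described apart. Of the factors, 50 had enough reads to be tested among 19146 genes; the other one, Eif4e1b, an eIF4E relative, had between 0 and 4 reads in each library. Eif3j1 and Eif3j2 cover the same stretch of chromosome 2 (Eif3j1 from 122028580 to 122053632, build mm10) and held nearly the same counts, so the 55 names stand for 54 loci and these 2 are 1 measurement.

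Initiation begins when eIF2, loaded with GTP and the initiator tRNA, joins the small ribosomal subunit together with eIF1, eIF1A, eIF5 and the large scaffold eIF3. The eIF4F complex, made of the cap-binding protein eIF4E, the scaffold eIF4G and the RNA helicase eIF4A, recruits the mRNA, while eIF4E-binding proteins block this step until the kinase mTORC1 phosphorylates them. eIF2B reloads eIF2 with GTP, and the eIF2α kinases halt that reloading under stress. Resting T cells make little protein, and receptor engagement is known to raise their protein synthesis as they grow and divide.

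The cells were mouse spleen CD4 T cells, without FOXP3 and with high surface CD44, as on cells that have met antigen, from mice carrying both a KLF2(GFP) and a FOXP3(RFP) reporter. They were sorted by the KLF2 reporter, so KLF2+ and KLF2- name reporter classes and not a gene deletion; the labels give no age or strain. The 4 groups were stimulated KLF2+, unstimulated KLF2+, stimulated KLF2- and unstimulated KLF2- cells, with 2 libraries each, numbered 1 and 2 for KLF2+ cells and 3 and 4 for KLF2- cells. Stimulation was 48 h with 2.5 µg/mL anti-CD3 and 1.25 µg/mL anti-CD28, antibodies against the T cell receptor complex and a costimulatory receptor, and unstimulated cells were kept for the same time.

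Reads in exons numbered 21.03 M and 36.6 M (M, mega) in stimulated KLF2+ libraries, 8.27 M and 17.8 M in unstimulated KLF2+ libraries, 4.53 M and 2.99 M in stimulated KLF2- libraries, and 7.34 M and 8.62 M in unstimulated KLF2- libraries. Exons took 62.0% and 80.3% of aligned tags in stimulated KLF2+ libraries, against 7.96% to 43.9% in the other 6. Reads over 1471 olfactory and vomeronasal receptor genes, whose known site is the sensory epithelium, put a uniform background at 0.402% to 20.2% of exon reads, highest in stimulated KLF2- replicate 4. Each comparison below is therefore given on the deposited counts and again after subtraction of this background with scaling factors taken from genes at or above 50 CPM (counts scaled to a common library size). Klf2 itself had 93.5 and 139 CPM in stimulated KLF2+ libraries, 303 and 379 CPM in unstimulated KLF2+ libraries, 46.5 and 75.8 CPM in stimulated KLF2- libraries and 41.02 and 65.0 CPM in unstimulated KLF2- libraries. Summed CPM of 10 T cell markers was 7997 to 8806 in stimulated KLF2+ libraries, 5573 to 8578 in unstimulated KLF2+ libraries, 3066 to 3081 in stimulated KLF2- libraries and 4075 to 4697 in unstimulated KLF2- libraries. Summed CPM of 12 myeloid markers was 1248 to 2334 in unstimulated KLF2+ libraries and 229 to 326 in the other 6. In those 6 the marker Ctss alone had 164 to 272 CPM. Lyz2 had 705 and 1376 CPM in unstimulated KLF2+, 32.7 and 60.4 CPM in stimulated KLF2+ and 2.31 to 8.5 CPM in KLF2- libraries. Itgam, C1qa and Cd14 overlapped between unstimulated KLF2+ and other libraries. In bulk RNA, fewer cells of a type and less RNA per cell cannot be told apart.

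The helicase of eIF4F is made from 2 genes. Eif4a1 lies on chromosome 11 (69666936 to 69672423, minus strand) and Eif4a2 on chromosome 16 (23107468 to 23114132, plus strand), both in mm10. Their upstream sequences are shown because the ratio of the paralogs differed in stimulated KLF2+ cells. They are from RefSeq (GRCm38.p6), cover 200 bases that end 50 bases short of the annotated start, and run 5′ to 3′ on the gene's strand. Capitals mark CACGTG, the E-box bound by MYC and related factors.
Eif4a1 upstream, chr11:69672474-69672673, minus strand: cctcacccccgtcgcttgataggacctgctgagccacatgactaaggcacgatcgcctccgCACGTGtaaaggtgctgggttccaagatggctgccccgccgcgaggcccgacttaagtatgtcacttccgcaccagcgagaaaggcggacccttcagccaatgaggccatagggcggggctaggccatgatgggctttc
Eif4a2 upstream, chr16:23107218-23107417, plus strand: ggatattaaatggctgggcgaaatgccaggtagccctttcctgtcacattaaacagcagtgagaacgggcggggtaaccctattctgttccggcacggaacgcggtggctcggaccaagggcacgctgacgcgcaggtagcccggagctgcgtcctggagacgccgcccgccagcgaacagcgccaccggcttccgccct
The Eif4a1 stretch held 1 E-box, whose first base lay 189 bases before the start, and these letters were not in the Eif4a2 stretch.

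A promoter sequence was given for 39 of the 51 factors, and 10 of these 39 (25.6%) held CACGTG in the 300 bases around a start, 250 before it and 50 after. Among all tested genes with a promoter the share was 10.2%. CACGTG reads the same on both strands and was searched as written. Besides Eif4a1, the E-box genes were Eif1b, Eif3a, Eif3f, Eif3k, Eif4e, Eif4g1, Eif4h, Eif5a and Eif5a2. The sites nearest the start are shown for the other eIF4F genes, for Eif4h and for Eif5a, with 12 bases on each side.
Eif4e, chr3:138527192-138527221, plus strand: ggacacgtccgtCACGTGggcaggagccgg
Eif4g1, chr16:20672661-20672690, plus strand: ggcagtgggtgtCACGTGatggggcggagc
Eif4h, chr5:134639488-134639517, minus strand: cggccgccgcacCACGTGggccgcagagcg
Eif5a, chr11:69921443-69921472, minus strand: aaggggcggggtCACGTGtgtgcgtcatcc
The first base of the E-box lay 64, 54, 96 and 74 bases before the start of Eif4e, Eif4g1, Eif4h and Eif5a. CCGGAAG, the core bound by ETS factors, searched on both strands, was in 15 of the 39 promoters (38.5%), against 15% of all tested genes with a promoter, and 3 promoters held both motifs, those of Eif1b, Eif5a and Eif5a2. In the response of KLF2+ cells 8 of the 10 factors with an E-box were called, with a median log2 fold change of 1.17, and 23 of the 29 others, with a median of 1.08. A match describes the letters and not a site in use.

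In KLF2+ cells, stimulation was followed by more mRNA for most of the initiation machinery. Of 50 factors, 40 rose and 0 fell on the deposited counts (edgeR's quasi-likelihood test, Benjamini-Hochberg adjusted p under 0.05), with a median log2 fold change of 1.19. Over all 19146 genes, 19.7% rose and 17.4% fell, with a median of -0.25. Most factors are abundant, and among the 5241 genes of at least 50 CPM 43.1% rose and 6.18% fell; 36 of 43 factors at that level rose. After background subtraction 28 factors rose and 1, Eif4a2, fell, against 12.7% and 16.4% of the 15281 genes then tested, and 24.4% and 19.7% of the genes of at least 50 CPM. All 28 were among the 40. Both stimulated libraries were above both unstimulated ones for 46 factors and below for 2 (Eif4a2, Eif4ebp3), where 35.2% and 40.1% of genes were; after subtraction these counts were 41 and 4, where 30.8% and 43.2% were. On deposited counts, 14 rose when unstimulated KLF2+ replicate 1 was left out and 25 when stimulated KLF2+ replicate 2 was. With the replicate number as a block Eif1b and Eif5a2 were also called, where 24.4% of all genes rose.

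**Figure D1:**
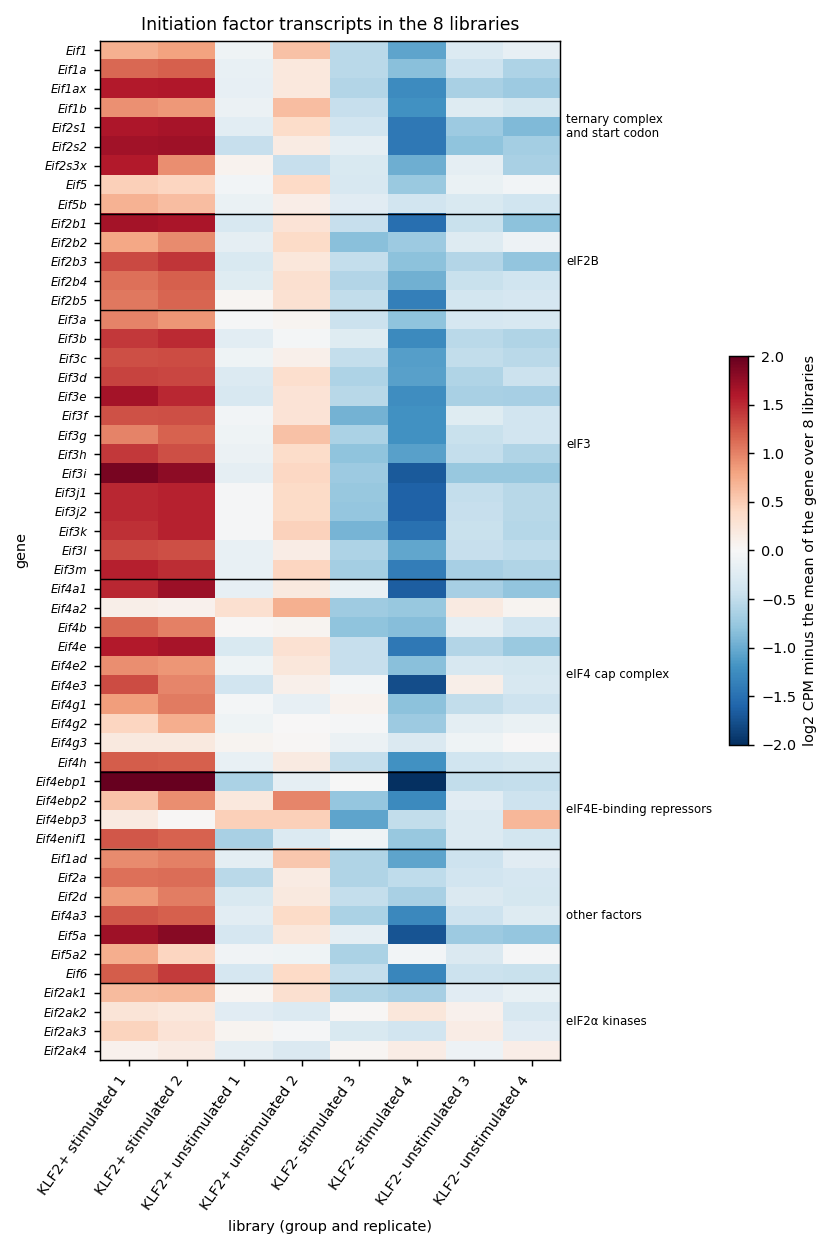
Colour gives the log2 CPM of each tested gene (Eif2s3y, at 0 in 4 libraries, left out) minus its mean over the 8 libraries, with genes down the page by role and libraries across. The stimulated KLF2+ libraries are red for nearly every factor, Eif4a2 and Eif4ebp3 are close to white there, and stimulated KLF2- replicate 4 is the bluest column.

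**Figure D2:**
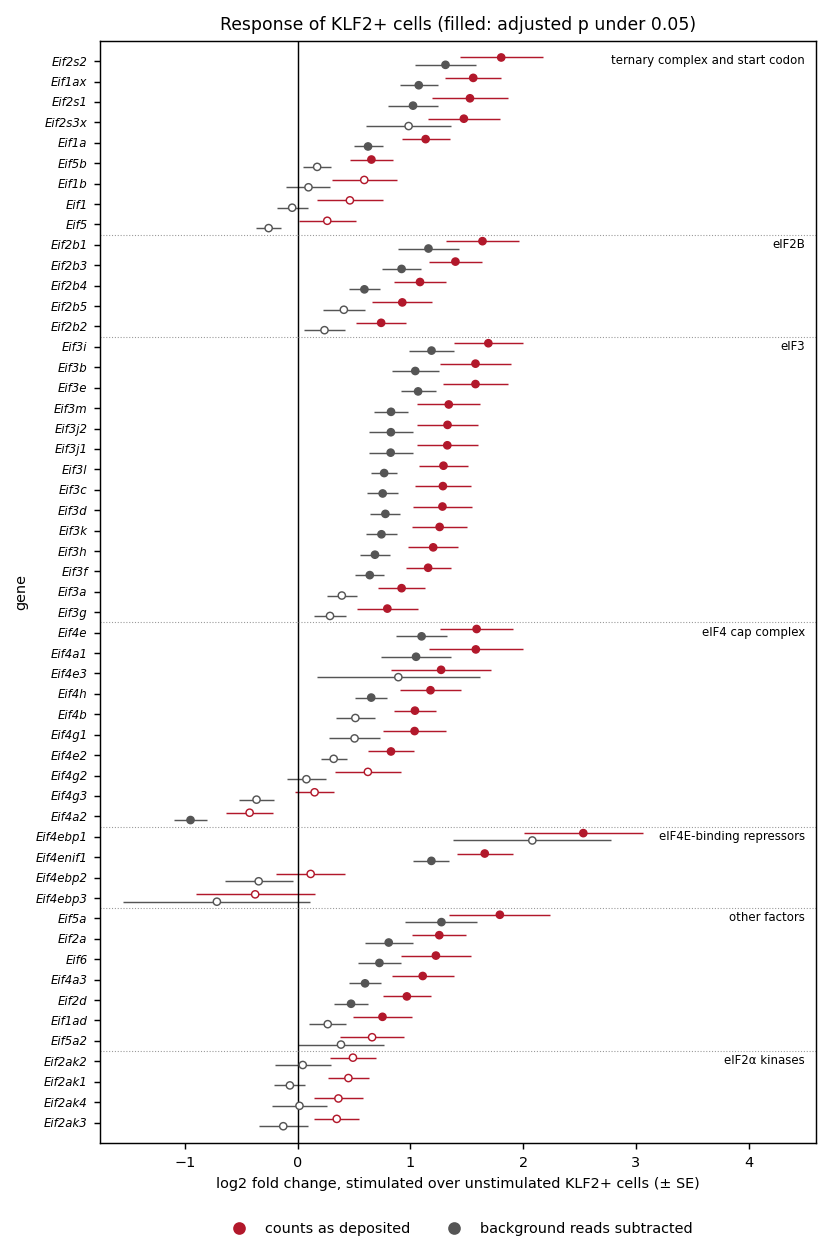
Points give the log2 fold change of stimulated over unstimulated KLF2+ cells with its standard error, in red on deposited counts and in grey after background subtraction; filled points passed the test. All 14 eIF3 entries lie right of 0 in both, and Eif4a2 is the filled point left of 0.

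Of the helicase genes, Eif4a1 had 1536 and 1762 CPM in stimulated KLF2+ cells, against 483 and 620 CPM in unstimulated KLF2+ cells. KLF2- cells had 487 and 172 CPM with stimulus, against 340 and 314 CPM without. Both stimulated KLF2+ libraries were above the other 6, and the log2 fold change was 1.58 ± 0.42 (SE, adjusted p = 0.019, edgeR), or 1.05 ± 0.31 after background subtraction (adjusted p = 0.040, edgeR).

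Eif4a2 did not rise with it in the same libraries. It had 241 and 234 CPM in stimulated KLF2+ cells, against 278 and 361 CPM in unstimulated KLF2+ cells, and 135 and 131 CPM in stimulated KLF2- cells, against 252 and 229 CPM in unstimulated KLF2- cells. In each population both stimulated libraries were below both unstimulated ones. The log2 fold change in KLF2+ cells was -0.43 ± 0.21 on deposited counts, which did not pass (adjusted p = 0.12, edgeR), and -0.95 ± 0.15 after background subtraction, which did (adjusted p = 0.0062, edgeR). In KLF2- cells it was -0.85 ± 0.21 (adjusted p = 0.27, edgeR) and did not pass. Eif4a2 overlaps Rfc4 and carries small nucleolar RNA genes in its introns, and whether the counting used strand is not given in the sources used here.

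The ratio of 2 genes within a library does not depend on how libraries are scaled. Per length, in TPM, Eif4a1 over Eif4a2 was 10.8 and 12.8 in stimulated KLF2+ cells, against 2.96 and 2.92 in unstimulated KLF2+ cells. In KLF2- cells it was 6.11 and 2.23 with stimulus, against 2.29 and 2.33 without. Background subtraction left these ratios between 2.29 and 12.8. The stimulated KLF2+ libraries stood above the other 6, and of the stimulated KLF2- libraries replicate 3 was above and replicate 4 below both unstimulated ones. With 2 libraries a side an exact permutation test cannot give a p under 0.333, so none is given for ratios.

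**Figure D3:**
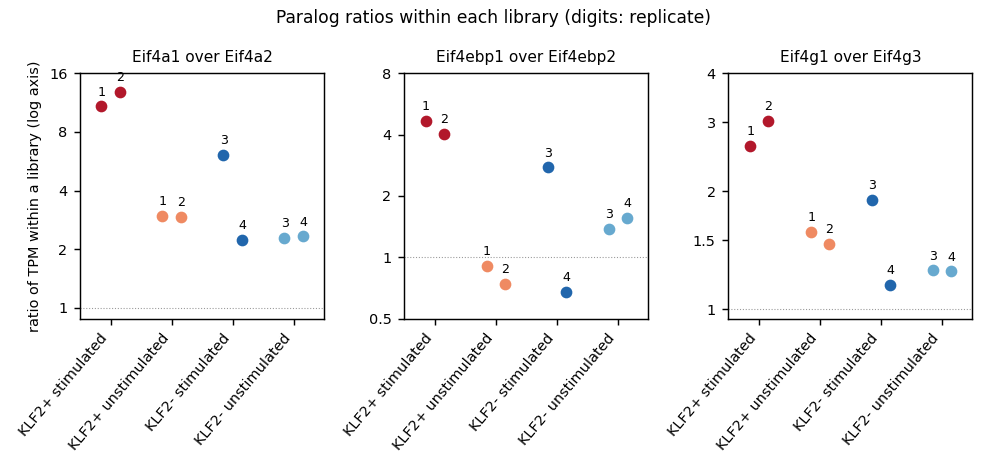
Each point is 1 library (the digit is the replicate) and gives the ratio of TPM between 2 genes on a log axis. In all 3 panels both stimulated KLF2+ points lie above all other points, and stimulated KLF2- replicate 3 lies above replicate 4.

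The other parts of eIF4F rose with Eif4a1. Eif4e, the cap-binding protein, had 544 and 564 CPM in stimulated KLF2+ cells, against 146 and 223 CPM in unstimulated KLF2+ cells (log2 fold change 1.59 ± 0.32, adjusted p = 0.0073, edgeR). KLF2- cells had 131 and 67.1 CPM with stimulus, against 120 and 108 CPM without. Eif4g1, the main scaffold, had 316 and 367 CPM in stimulated KLF2+ cells, against 174 and 159 CPM in unstimulated KLF2+ cells. Its log2 fold change of 1.04 ± 0.28 passed on deposited counts (adjusted p = 0.020, edgeR), and that of 0.50 ± 0.23 after background subtraction did not (adjusted p = 0.13, edgeR). Eif4g3, a scaffold paralog, had 139 and 139 CPM in stimulated KLF2+ cells, against 127 and 124 CPM in unstimulated KLF2+ cells (0.15 ± 0.18, adjusted p = 0.49, edgeR; -0.36 ± 0.15 after background subtraction, adjusted p = 0.11, edgeR). Eif4g1 over Eif4g3 in TPM was 2.60 and 3.02 in stimulated KLF2+ cells, against 1.58 and 1.46 in unstimulated KLF2+ cells. In KLF2- cells that ratio was 1.90 and 1.15 with stimulus, against 1.26 and 1.25 without.

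Across the 10 tested genes of the cap complex, 7 rose in KLF2+ cells and 0 fell on deposited counts. Besides Eif4e, Eif4a1 and Eif4g1, these were the helicase cofactors Eif4b and Eif4h and the cap-binding relatives Eif4e2 and Eif4e3. After background subtraction Eif4e, Eif4a1 and Eif4h rose and Eif4a2 fell. Eif4g2, a scaffold relative that lacks the eIF4E-binding region, had 1411 and 1743 CPM in stimulated KLF2+ cells, against 995 and 1053 CPM in unstimulated KLF2+ cells, and did not pass (0.62 ± 0.29, adjusted p = 0.11, edgeR).

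Among the eIF4E-binding repressors, Eif4ebp1, which holds eIF4E away from eIF4G until mTORC1 phosphorylates it, had the highest log2 fold change of the 50 factors. It had 79.6 and 88.2 CPM in stimulated KLF2+ cells, against 12.2 and 16.7 CPM in unstimulated KLF2+ cells. Stimulated KLF2- cells had 18.8 and 3.27 CPM, against 13.5 and 13.6 CPM in unstimulated KLF2- cells. The stimulated KLF2+ libraries did not overlap any other, and the stimulated KLF2- libraries lay on both sides of the unstimulated ones. The log2 fold change in KLF2+ cells was 2.53 ± 0.53 (adjusted p = 0.0080, edgeR), and after background subtraction 2.08 ± 0.70 (adjusted p = 0.059, edgeR), short of the threshold.

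Its paralog Eif4ebp2 had 31.2 and 40.1 CPM in stimulated KLF2+ cells, against 24.4 and 41.3 CPM in unstimulated KLF2+ cells, and these overlapped. Eif4ebp1 over Eif4ebp2 in TPM was 4.66 and 4.01 in stimulated KLF2+ cells, against 0.908 and 0.737 in unstimulated KLF2+ cells. In KLF2- cells it was 2.76 and 0.676 with stimulus, against 1.38 and 1.57 without. The 0.676, in replicate 4, rested on 15 reads of Eif4ebp1 and 40.5 of Eif4ebp2, of which 57.7% and 39.0% were at the background level. After background subtraction that ratio was 0.468. The more abundant of the pair per length was Eif4ebp1 in stimulated KLF2+ cells and Eif4ebp2 in unstimulated KLF2+ cells. Eif4ebp1 over its target Eif4e was 0.749 and 0.802 in stimulated KLF2+ cells, against 0.427 and 0.383 in unstimulated KLF2+ cells, also in TPM. In KLF2- cells it was 0.732 and 0.249 with stimulus, against 0.574 and 0.644 without, and background subtraction took the 0.249 to 0.123. Stimulated KLF2- replicate 3 was thus close to the stimulated KLF2+ libraries, and both unstimulated KLF2- libraries were above both unstimulated KLF2+ ones. Eif4enif1, the eIF4E transporter, had 215 and 205 CPM in stimulated KLF2+ cells, against 57.9 and 75.0 CPM in unstimulated KLF2+ cells (1.66 ± 0.25, adjusted p = 0.0022, edgeR). Eif4ebp3 had 3.47 and 3.14 CPM in stimulated KLF2+ cells, against 4.28 and 4.31 CPM in unstimulated KLF2+ cells, and did not pass.

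The eIF3 scaffold rose as a whole. All 14 entries, 13 subunit loci, were called higher in stimulated KLF2+ cells, with log2 fold changes between 0.80 and 1.69. After background subtraction 12 of 14 were, and Eif3a (0.39 ± 0.13, adjusted p = 0.060, edgeR) and Eif3g (0.29 ± 0.15, adjusted p = 0.16, edgeR) were not. Eif3i had the highest change, with 291 and 270 CPM in stimulated KLF2+ cells, against 68.9 and 105 CPM in unstimulated KLF2+ cells. In KLF2- cells Eif3i had 47.2 and 24.4 CPM with stimulus, against 46.4 and 46.1 CPM without. Eif3g, an RNA-binding subunit, had 334 and 378 CPM in stimulated KLF2+ cells, against 158 and 252 CPM in unstimulated KLF2+ cells.

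The subunits of this complex did not keep their order of abundance. Per length, Eif3m had the highest TPM of the subunits in both stimulated KLF2+ libraries (284 and 267) and Eif3g in each of the other 6 (130 to 208). Eif3a, the core subunit, was lowest in stimulated KLF2+ libraries (60.6 and 55.3 TPM), and Eif3j1 was lowest elsewhere (20.6 to 39.6 TPM). The span between the highest and the lowest subunit was 4.56-fold to 6.28-fold over the 8 libraries.

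The α and β subunits of eIF2 and the genes of its exchange factor rose on deposited counts, while factors of start-codon choice did not all pass. The γ subunit is described apart. Eif2s1, the α subunit of eIF2 that the stress kinases phosphorylate, had 719 and 732 CPM in stimulated KLF2+ cells, against 201 and 301 CPM in unstimulated KLF2+ cells (1.53 ± 0.34, adjusted p = 0.010, edgeR). Eif2s2, the β subunit, had 438 and 443 CPM in stimulated KLF2+ cells, against 98.8 and 153 CPM in unstimulated KLF2+ cells (1.81 ± 0.37, adjusted p = 0.0073, edgeR). In KLF2- cells Eif2s1 had 180 and 86.3 CPM and Eif2s2 had 120 and 50.5 CPM with stimulus, against 141 and 126 CPM and 78.1 and 84.8 CPM without. In both genes the stimulated KLF2- libraries spread to either side of the unstimulated ones.

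Eif1 and Eif5, which set the stringency of start-codon choice, did not pass in KLF2+ cells in edgeR. Eif1 had 1117 and 1197 CPM in stimulated KLF2+ cells, against 648 and 1029 CPM in unstimulated KLF2+ cells (0.46 ± 0.29, adjusted p = 0.21, edgeR; -0.05 ± 0.14 after background subtraction, adjusted p = 0.81, edgeR). Eif5, which activates the GTPase of eIF2, had 733 and 703 CPM in stimulated KLF2+ cells, against 503 and 694 CPM in unstimulated KLF2+ cells (0.26 ± 0.25, adjusted p = 0.40, edgeR). The value for Eif5 turned to -0.26 ± 0.11 after background subtraction, which did not pass (adjusted p = 0.12, edgeR), and limma called Eif5 lower on both log2(TPM + 1) and log2(TPM + 0.1). Eif5b, which joins the large subunit, had 204 and 193 CPM in stimulated KLF2+ cells, against 115 and 137 CPM in unstimulated KLF2+ cells. It passed on deposited counts (0.65 ± 0.19, adjusted p = 0.025, edgeR), not after background subtraction (0.17 ± 0.13, adjusted p = 0.32, edgeR), and was -0.02 in limma on log2(TPM + 1). Of the 10 tested genes in this group 6 rose on deposited counts and 4 after background subtraction. All 5 eIF2B genes rose, with log2 fold changes between 0.74 (Eif2b2) and 1.64 (Eif2b1); after background subtraction Eif2b1, Eif2b3 and Eif2b4 did.

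The eIF2 γ subunit has copies on both sex chromosomes, and its reads split by replicate and not by group. Eif2s3y, on chromosome Y, had 78.4 TPM in stimulated KLF2+ replicate 2, 95.8 TPM in unstimulated KLF2+ replicate 2, 105 TPM in stimulated KLF2- replicate 4 and 99.0 TPM in unstimulated KLF2- replicate 4. It had 0 reads in replicates 1 and 3 of the same groups, where 3 reads would have been 0.226 to 0.494 CPM. Other chromosome Y genes (Uty, Kdm5d, Ddx3y) divided the libraries in the same way, with at most 1 read in replicates 1 and 3. Xist, the RNA of the inactive X chromosome, ran the other way, with 73.9 to 169 CPM in replicates 1 and 3 and 0 to 7.84 CPM in replicates 2 and 4. The 2 libraries of each group therefore did not come from the same animal. The labels give no sex, and values on this division are a description with no test.

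**Figure D4:**
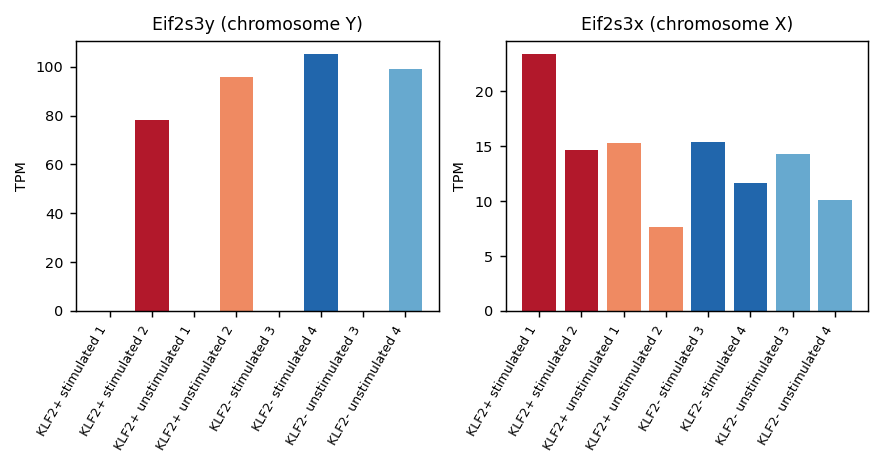
Bars give TPM in each of the 8 libraries for the copies of the eIF2 γ subunit gene on chromosomes Y and X; each panel has its own scale. Eif2s3y is at 0 in replicates 1 and 3 of every group, and Eif2s3x is higher in those replicates than in their partners.

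Eif2s3x, the chromosome X copy, was higher in the replicate without Eif2s3y in all 4 groups. Its CPM in replicate 1 over replicate 2 was 1.58 in stimulated and 1.44 in unstimulated KLF2+ cells. In replicate 3 over replicate 4 it was 1.59 in stimulated and 1.37 in unstimulated KLF2- cells. It was the highest such ratio of 49 factors in every group but stimulated KLF2- cells, where it ranked 23. Between groups Eif2s3x had 131 and 82.6 CPM in stimulated KLF2+ cells, against 45.4 and 31.5 CPM in unstimulated KLF2+ cells (1.47 ± 0.32, adjusted p = 0.0089, edgeR). It did not pass after background subtraction (0.98 ± 0.38, adjusted p = 0.083, edgeR). Summed over both copies, KLF2+ replicate 2 had 93.0 TPM with stimulus and 103.5 TPM without. KLF2+ replicate 1 had 23.4 TPM with stimulus and 15.25 TPM without, so the sum did not move the same way in both.

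Eif5a, which carries the modified amino acid hypusine and helps ribosomes through slow peptide bonds, was the most abundant factor per length in stimulated KLF2+ cells. It had 2882 and 3145 CPM in stimulated KLF2+ cells, against 702 and 1037 CPM in unstimulated KLF2+ cells (1.79 ± 0.45, adjusted p = 0.016, edgeR). KLF2- cells had 782 and 269 CPM with stimulus, against 540 and 521 CPM without. Its share of the factors' summed TPM was 19.3% and 20.03% in stimulated KLF2+ cells, against 12.8% and 13.2% in unstimulated KLF2+ cells. In KLF2- cells the share was 17.2% and 9.84% with stimulus, against 12.03% and 11.3% without. The share of Eif1 moved the other way, at 8.56% and 8.72% in stimulated KLF2+ cells, against 13.5% and 14.96% in unstimulated KLF2+ cells.

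**Figure D5:**
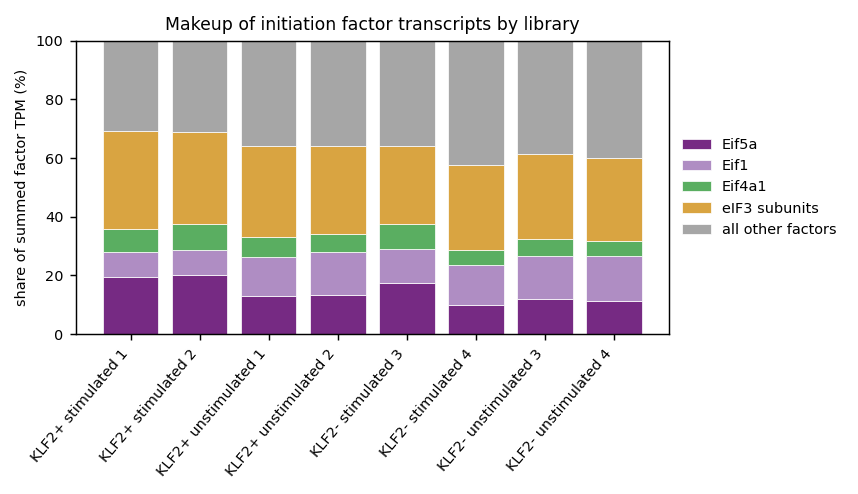
Stacked bars give the share (%) of the factors' summed TPM in each library for Eif5a, Eif1, Eif4a1, the eIF3 subunits and all other factors. The Eif5a part is widest in the stimulated KLF2+ libraries and next in stimulated KLF2- replicate 3, and the Eif1 part is narrowest in the stimulated KLF2+ libraries.

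Eif6, which keeps the large subunit from joining too early, had 362 and 411 CPM in stimulated KLF2+ cells, against 125 and 206 CPM in unstimulated KLF2+ cells (1.23 ± 0.31, adjusted p = 0.016, edgeR). Eif2a and Eif2d, which can deliver initiator tRNA by other routes, Eif1ad and Eif4a3, a helicase of the exon junction complex, rose too. After background subtraction Eif5a, Eif6, Eif2a, Eif2d and Eif4a3 still passed and Eif1ad did not. Together the factors took 1.31% and 1.38% of exon reads in stimulated KLF2+ cells, against 0.897% and 0.952% in unstimulated KLF2+ cells. In KLF2- cells they took 0.956% and 0.683% with stimulus, against 0.818% and 0.811% without. The lowest of these shares, 0.683%, had a 95% Wilson interval of 0.674% to 0.693%, and such intervals cover counting error only.

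The eIF2α kinases did not pass the test in the response of KLF2+ cells. None of Eif2ak1 (heme-regulated), Eif2ak2 (activated by double-stranded RNA), Eif2ak3 (of the endoplasmic reticulum) and Eif2ak4 (sensing uncharged tRNA) passed in KLF2+ cells. On deposited counts their log2 fold changes were between 0.35 and 0.49, and 2 had an unadjusted p under 0.05 in edgeR. After background subtraction the changes were between -0.13 and 0.05, and none passed. On deposited counts both stimulated libraries were above both unstimulated ones for all 4 kinases, where 35.2% of genes were. After subtraction this held for 0 kinases, where 30.8% of genes did. Eif2ak1, the most read of them, had 180 and 180 CPM in stimulated KLF2+ cells, against 119 and 144 CPM in unstimulated KLF2+ cells. The median share of reads at the background level was 0.777% to 20.2% per library for the kinases and 0.0936% to 8.13% for the factors. The highest kinase share was 33.1%, for Eif2ak4 in stimulated KLF2- replicate 4. Some factors of few reads were above it in that library, such as Eif4e3 (78.0%) and Eif4ebp1 (57.7%).

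Genes around initiation were read from lists, and their counts stand beside the 19.7% of all genes and 43.1% of genes of at least 50 CPM that rose in this comparison, or 12.7% and 24.4% after background subtraction. Of 14 partners of initiation, 9 rose in KLF2+ cells and 0 fell. They included Larp1, which binds mRNAs of the translation apparatus, with 411 ± 8.09 CPM in stimulated and 146 ± 22.4 CPM in unstimulated KLF2+ cells (SD, n = 2 each). After background subtraction 3 rose (Denr, Abce1, Larp1) and 3 fell, among them Pdcd4, an inhibitor of eIF4A (-0.96 ± 0.21, adjusted p = 0.016, edgeR). Of 10 elongation and release genes, 8 rose and 0 fell, and after background subtraction 6 of the 9 then tested rose. Eef1g, a subunit of the eEF1 exchange complex, had 752 ± 12.5 CPM in stimulated and 218 ± 36.3 CPM in unstimulated KLF2+ cells (SD, n = 2 each).

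Of 13 genes of the integrated stress response, which the eIF2α kinases trigger, 5 rose (Atf4, Asns, Chac1, Atf5, Cebpb) and 1 fell. After background subtraction 2 rose, Asns and Cebpb, and 1 fell, so the share that rose was near that of all genes. Asns, which makes asparagine, had 172 ± 19.7 CPM in stimulated and 18.8 ± 3.02 CPM in unstimulated KLF2+ cells (SD, n = 2 each; 3.19 ± 0.49, adjusted p = 0.0025, edgeR). Impact, an inhibitor of Eif2ak4, fell by 0.64 ± 0.21 on the log2 scale (adjusted p = 0.039, edgeR). Of 16 genes of the mTORC1 pathway, 3 rose (Mtor, Rps6kb1, Ddit4) and Deptor, an inhibitor of mTOR, fell (-2.41 ± 0.43, adjusted p = 0.0045, edgeR). The share that rose was near that of all genes, and it was 5 of 16 with the replicate block, where 24.4% of all genes rose. After background subtraction 0 of the 16 rose and Deptor fell; 3 had an unadjusted p under 0.05. Division genes moved with the factors: all 5 rose, and Top2a had 860 and 682 CPM in stimulated KLF2+ cells, against 47.2 and 36.8 CPM in unstimulated KLF2+ cells. The part of division and of the myeloid markers in the factors' response was not tested.

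In KLF2- cells no factor was called after stimulation. edgeR called 0 of 50 and 0% of all 19146 genes, and DESeq2 called 0 of the factors. An unadjusted p under 0.05 was reached by 6 factors in edgeR and 2 in DESeq2. The share of all genes at that level is not given here. The median log2 fold change of the factors was -0.32 on deposited counts and 0.05 after background subtraction, so the direction turned with the processing. Both stimulated libraries were below both unstimulated ones for 28 factors and above for 0, where 30.2% and 31.2% of genes were. After background subtraction these counts were 6 and 13, where 17.5% and 32% of genes were. The smallest p-values belonged to Eif4a2, given above, Eif3f and Eif4b. Eif3f had 46.2 and 38.1 CPM in stimulated KLF2- cells, against 74.8 and 67.8 CPM in unstimulated KLF2- cells (-0.76 ± 0.20, adjusted p = 0.27, edgeR). Eif4b had 85.2 and 82.8 CPM in stimulated KLF2- cells, against 131 and 114 CPM in unstimulated KLF2- cells (-0.55 ± 0.19, adjusted p = 0.28, edgeR).

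The stimulated KLF2- libraries differed from each other. Replicate 3 was above replicate 4 for 45 of 49 factors (Eif2s3y left out), with a median ratio of 1.55 in CPM, where 60.6% of 10395 genes of at least 10 CPM were above, with a median ratio of 1.11. The ratio was highest for Eif4ebp1, at 5.75. Top2a had 219 CPM in replicate 3 and 40.5 CPM in replicate 4. In unstimulated KLF2- cells replicate 3 was above replicate 4 for 29 of 49 factors, with a median ratio of 1.03.

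The responses of the populations were then set against each other. The difference in response (stimulated minus unstimulated KLF2+ cells, minus the same in KLF2- cells) was positive and called for 37 of 50 factors and negative for 0, where 20.3% and 15.5% of all genes were. The median was 1.55 on the log2 scale, against -0.09 over all genes and 0.94 over genes of at least 50 CPM, of which 50.3% were higher and 1.66% lower. All 14 eIF3 entries and all 5 eIF2B genes were among the 37, with 5 of 10 in each of the cap complex and the ternary group. Eif4ebp1 (2.79 ± 0.75, adjusted p = 0.026, edgeR) and Eif3i (2.05 ± 0.43, adjusted p = 0.018, edgeR) had the highest values. Eif4a1 did not pass (1.57 ± 0.58, adjusted p = 0.057, edgeR). With the replicate number as a block it did (1.76 ± 0.46, adjusted p = 0.00050, edgeR), as did Eif1, Eif1b and Eif4g1, where 26.3% of all genes were higher. Among the eIF2α kinases, Eif2ak1 was called on deposited counts (0.90 ± 0.26, adjusted p = 0.031, edgeR). It did not pass after background subtraction (-0.04 ± 0.20, adjusted p = 0.92, edgeR).

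After background subtraction the difference was called for 10 factors, 7 of them eIF3 entries, where 3.58% of genes were higher and 8.23% lower, and 7.17% and 6.62% of those of at least 50 CPM. These were Eif3e, Eif3f, Eif3i, Eif3j1, Eif3j2, Eif3k and Eif3l, with Eif1ax, Eif4a3 and Eif4enif1. Eif3k, a peripheral subunit, had 253 and 266 CPM in stimulated KLF2+ cells, against 89.8 and 127 CPM in unstimulated KLF2+ cells. In KLF2- cells it had 48.0 and 32.7 CPM with stimulus, against 67.4 and 61.9 CPM without. Its difference was 1.94 ± 0.34 (adjusted p = 0.014, edgeR), and 1.01 ± 0.19 after background subtraction (adjusted p = 0.035, edgeR). On deposited counts 0 differences were called when either unstimulated KLF2- library was left out, 2 (Eif3f and Eif4b) when unstimulated KLF2+ replicate 1 was, and 16 when stimulated KLF2+ replicate 2 was.

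Under stimulation KLF2+ cells held more factor mRNA than KLF2- cells. On deposited counts 47 of 50 factors were higher and 0 lower, with a median log2 fold change of 1.98, where 35.5% of all genes were higher and 39.7% lower. Among genes of at least 50 CPM, 80% were higher and 3.34% lower, with a median of 1.23, and 41 of 43 factors at that level were higher. Both KLF2+ libraries were above both KLF2- libraries for 49 factors, all but Eif2s3y, where 43.2% of genes were; after subtraction this held for 42 factors, where 29.8% of genes did. After background subtraction 32 were higher and 3 lower, with a median of 0.85, where 16% of genes were higher and 38.5% lower, and 29.6% and 25.8% of those of at least 50 CPM. Of the 32, 31 were among the 47; the other, Eif4ebp3, was at 0 in both stimulated KLF2- libraries after subtraction and had 9 and 10 reads there before it.

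eIF3 subunits stood at the top of this comparison. Eif3i (2.96 ± 0.32, adjusted p = 0.00025, edgeR) and Eif4ebp1 (2.89 ± 0.55, adjusted p = 0.0014, edgeR) were followed by Eif3k (2.68 ± 0.26) and the shared Eif3j1 and Eif3j2 locus (2.65 ± 0.29 for both). At the low end the direction depended on scaling. Eif4a2 was higher in KLF2+ cells on deposited counts (0.83 ± 0.21, adjusted p = 0.0054, edgeR) and lower after background subtraction (-0.45 ± 0.15, adjusted p = 0.033, edgeR). Eif5 turned in the same way (0.97 ± 0.25, and -0.32 ± 0.11 after subtraction). Eif4g2 and Eif5b turned without passing after subtraction, and Eif4g3, not called on deposited counts (0.39 ± 0.18), was lower after it (-0.81 ± 0.16, adjusted p = 0.0050, edgeR).

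When scaling factors came from abundant genes (at least 50 CPM) without subtraction, the all-gene median in this comparison was -1.39 on the log2 scale, against -0.19 with factors from all genes. Relative to those medians the factors' median was 2.21 and 2.17 above all genes. A change of scaling alone shifts all genes by nearly the same amount, so this gap was bound to stay. Among genes of at least 50 CPM the gap was smaller. There the median was 2.00 for factors and 1.23 for all genes on deposited counts, and 0.80 and 0.03 after background subtraction. The exon share of the stimulated KLF2- libraries, 7.96% and 12.7% of tags, moved with this comparison and its part was not tested. Eif2ak1 and Eif2ak3 were higher in KLF2+ cells on deposited counts (1.27 ± 0.19 and 0.70 ± 0.20), and after background subtraction neither passed, while Eif2ak2 (-1.03 ± 0.26) and Eif2ak4 (-0.88 ± 0.25) were lower.

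Without stimulus no factor was called between KLF2+ and KLF2- cells. edgeR called 0 of 50, where it called 1.07% of genes higher and 1.25% lower. DESeq2 called 3 (Eif2s1, Eif3i, Eif3m), all higher in KLF2+ cells, and its share of all genes is not given here. In edgeR 15 factors had an unadjusted p under 0.05, a level for which the share of all genes is not given here. The median log2 fold change was 0.51, and 0.17 after background subtraction, when 8 had an unadjusted p under 0.05. Both KLF2+ libraries were above both KLF2- libraries for 40 factors and below for 0, where 26.2% and 32.8% of genes were; after subtraction the counts were 25 and 4, where 18.2% and 42.1% were. Left without unstimulated KLF2+ replicate 1, 6 factors were called, Eif1ad, Eif2b3, Eif3g, Eif3h, Eif3k and Eif4ebp2.

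The factors nearest to passing were Eif3h, Eif3k and Eif4ebp2. Eif3h, a subunit of the peripheral part of eIF3, had 134 and 187 CPM in unstimulated KLF2+ cells, against 104 and 95.0 CPM in unstimulated KLF2- cells (0.69 ± 0.22, adjusted p = 0.15, edgeR). Eif3k, with the values given above, did not overlap either (0.75 ± 0.24, adjusted p = 0.16, edgeR). Eif4ebp2 had 24.4 and 41.3 CPM in unstimulated KLF2+ cells, against 17.9 and 15.8 CPM in unstimulated KLF2- cells (0.97 ± 0.31, adjusted p = 0.16, edgeR). The myeloid markers, 1248 to 2334 CPM in unstimulated KLF2+ libraries and 318 to 320 CPM in unstimulated KLF2- libraries, moved with this comparison, and their part was not tested.

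Among the neighbouring lists (14 partners, 10 elongation and release genes, 13 of the stress response and 16 of mTORC1), 1 gene was called without stimulus. Of all 19146 genes 1.07% were higher and 1.25% lower, so this count was near the share of all genes. Eef2k, the kinase that inactivates elongation factor eEF2, had 14.3 ± 0.682 CPM in unstimulated KLF2+ cells and 63.0 ± 2.65 CPM in unstimulated KLF2- cells (SD, n = 2 each). Its log2 fold change was -2.14 ± 0.25 (adjusted p = 0.0038, edgeR), and -2.89 ± 0.31 after background subtraction (adjusted p = 0.0057, edgeR). With stimulus Eef2k had 12.03 ± 2.64 CPM in KLF2+ cells and 44.1 ± 10.6 CPM in KLF2- cells (SD, n = 2 each). It was lower in KLF2+ cells there too (-1.88 ± 0.25, adjusted p = 0.00037, edgeR), where 39.7% of all genes were lower. After background subtraction the value was -3.02 ± 0.32 (adjusted p = 0.0011, edgeR). Its response in KLF2+ cells did not pass (-0.25 ± 0.25, adjusted p = 0.42, edgeR).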

How the data were processed

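RNA was sequenced from 8 libraries in 4 groups of 2. The authors ran HOMER on mm10 RefSeq exons without scaling, per the file headers; every deposited value is an estimated count in steps of 0.5, rounded here to whole numbers. A second table deposited by the authors holds TPM for the same libraries, whose columns sum to 503794 to 523430 over the genes given. The submitters' processing notes name STAR 2.7.9, HOMER 4.11, SAMtools and DESeq2; read filters and the use of strand are not given in the sources used here.

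The 8 libraries entered 1 model, fitted with edgeR 4.0.16 under R 4.3.3 after filterByExpr, with TMM scaling, 1 coefficient per group and 4 residual degrees of freedom. The quasi-likelihood F test was used with Benjamini-Hochberg adjustment over all 19146 genes, and an adjusted p under 0.05 was called. Standard errors are the absolute log2 fold change over the square root of F. The 5 contrasts share libraries and are not independent. The labels do not say how replicates were drawn. Chromosome Y and Xist reads show that the 2 libraries of each group did not come from the same animal, and p-values measure the spread between these libraries.

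Background reads per kb were taken over 1471 receptor genes (1697 kb of exons), multiplied by exon length and subtracted, and TMM factors were recomputed on genes at or above 50 CPM. The other alternatives were DESeq2 1.42.0, its size factors in edgeR, scaling from genes of at least 50 CPM, no filter, limma 3.58.1 on log2(TPM + 1) and on log2(TPM + 0.1) over genes of mean TPM of at least 1, a replicate block, and each library left out. Same-numbered libraries of a population deviated together from their group means (correlation 0.66 for numbers 1 and 2, and 0.287 for 3 and 4, over 10395 genes). The block takes the numbers to pair the stimulated and unstimulated libraries, which is an assumption, and they are not shared between populations. Chromosome Y reads split by these numbers too, and in KLF2+ cells the exon share was lower in number 1 of both groups. Shared animals cannot be told apart from these. The model was tested on simulated counts for the response of KLF2+ cells, with 1 dispersion (0.0855) for all genes. It recovered 75.0% of genes changed by a fold of 4.0 and 68.8% at 0.25. At folds of 2.0 and 0.5 it recovered 8.9% and 5.0%. In the data, factors were called at folds such as 1.57 (Eif5b) and 1.67 (Eif2b2), so these rates do not carry over to the factors. The simulation was not run for KLF2- cells. A factor that was not called was not shown to be unchanged.

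The genes, lists, tests and alternatives were chosen with earlier results of these data known. Named are the eIF4F genes, Eif4ebp1, Eif5a, Eif2s1, Eif6 and, per contrast, up to 5 called factors of at least 10 CPM with the highest and lowest log2 fold change, or the 3 with the smallest p where none was called; other names were chosen after their values were seen. Promoters came from RefSeq (GRCm38.p6).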

Additional observations from a re-analysis of the deposited data

Results flagged for a closer look

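The response to stimulation differed between KLF2+ and KLF2- cells by the test of the difference itself. It was called for 37 of 50 factors in edgeR, all with the higher response in KLF2+ cells, where 20.3% of all genes and 50.3% of genes of at least 50 CPM were higher. Leaving out either unstimulated KLF2- library took the count to 0, and after background subtraction it was 10. Among the called factors of at least 10 CPM, the highest differences on the log2 scale were 2.79 for Eif4ebp1, 2.05 for Eif3i, 1.94 for both entries of the Eif3j1 and Eif3j2 locus (Eif3j2 1.945, Eif3j1 1.937) and 1.94 for Eif3k. The lowest were 1.13 for Eif4e2, 1.20 for Eif3a, 1.20 for Eif2d, 1.24 for Eif1ad and 1.28 for Eif3g. After background subtraction Eif3i, Eif3j1, Eif3j2 and Eif3k of these 10 stayed past the threshold.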

How the results depend on the processing

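Direction and call were the same in 496 values of the 42 named results under the alternatives; 135 lost the call, 7 gained it and 21 turned. Without stimulus DESeq2 called 3 factors, and leaving out 1 library gave 0 to 6. Leaving out 1 library gave 46 to 49 factors with stimulus, 14 to 41 in the response of KLF2+ cells, 0 in that of KLF2- cells and 0 to 42 for the difference in response. The difference was called for 17 factors when scaled on genes at or above 50 CPM, 10 after background subtraction, and 10 and 12 in limma on log2(TPM + 1) and log2(TPM + 0.1). Both limma fits called Eif4a2 lower for this difference. Shares of all genes are not given here for DESeq2, limma, scaling from genes of at least 50 CPM, or fits without 1 library. The replicate block gave 42 factors in the response of KLF2+ cells, 0 in that of KLF2- cells and 41 for the difference, and moved no count of factors by more than 1.5 times. It has 2 residual degrees of freedom, and edgeR then called 56.7%, 4.02% and 56.7% of all genes.

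With stimulus, 5 factors among the named results turned to lower in KLF2+ cells. In the order scaling from genes of at least 50 CPM, background subtraction, TPM + 1 and TPM + 0.1, the log2 fold changes were -0.36, -0.45, -0.60 and -0.60 for Eif4a2, -0.25, -0.36, -0.49 and -0.49 for Eif4g2, -0.23, -0.19, -0.45 and -0.47 for Eif5b, and -0.21, -0.32, -0.45 and -0.46 for Eif5. Eif5a2 had -0.32, -0.43 and -0.50 in the first and the last pair, and stayed positive after background subtraction. Of the factors not called on deposited counts, Eif4g3 (-0.81, called) and Eif2s3y (-0.29, not called) also turned after background subtraction. In the response of KLF2+ cells Eif5b had -0.024 (TPM + 1) and -0.025 (TPM + 0.1). The cause was not tested. Tags were no fewer in stimulated KLF2- libraries (35.6 M and 37.5 M) than in stimulated KLF2+ replicate 1 (33.9 M), but exon reads were, and Eif4ebp1 had 15 reads in stimulated KLF2- replicate 4. Eif4e1b, with at most 4 reads in a library, was filtered out of the main fit. Without the filter on low counts it was called lower in stimulated KLF2+ than in stimulated KLF2- cells. It had 0 reads in both stimulated KLF2+ libraries and 4 and 3.5 in stimulated KLF2- replicates 3 and 4.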
